A study of Mus musculus with 30 samples.

Results

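Wild type mice that had received calcium chloride around the abdominal aorta were compared with sham-operated wild type mice, both sampled 7 days after the operation. The members were the 3 CaCl2 and 3 sham arrays that the sample titles name for that day, 6 of the 30 arrays in the series, and all 23268 genes that passed the signal filter were tested. Total RNA of each aortic sample was hybridised to 1 single-colour Agilent array. The mice were labelled C57BL/6 and wild type (WT). Sham mice received physiological saline in place of 0.5 M CaCl2. WT mice sampled without an operation (pre) and the day 7 samples of uMT mice, a line deficient in B cells, served as reference groups, each with 3 arrays. The labels give age, sex and pooling of animals nowhere, so p values measure the spread between arrays, which may be technical. All samples carry the same tissue label, an aneurysm of the abdominal aorta, sham and pre samples included. Genes that define aortic smooth muscle, such as Acta2 and Myh11, were well above background on all 6 arrays.

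In the healthy aorta the medial layer is built of smooth muscle cells between elastic lamellae, with an outer adventitia of fibroblasts, resident macrophages and mast cells. CaCl2 laid on the outer wall causes injury, calcium deposition in the elastic lamellae and inflammation, and is used as a model of abdominal aortic aneurysm. Matrix metalloproteinases and other proteases released during such inflammation degrade elastin and collagen, and smooth muscle cells can lower their contractile genes when the wall is injured. Fc receptors, which bind antibodies, signal in myeloid cells through the kinase Syk. In its title the series links B cells, antibodies and Syk to aneurysm.

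Levels are log2 signal scaled to the 75th percentile of each array. Differences are CaCl2 minus sham on that log2 scale, followed after ± by the standard error from limma, and every group has 3 arrays. A gene was called when its limma p value, adjusted over all 23268 genes, was under 0.05. Of the genes tested, 694 were higher (2.98%) and 840 lower (3.61%) in CaCl2, with a median over all genes of 0.094 (log2). That median lay between 0.026 and 0.165 when the arrays were scaled in other ways, and with the 75th percentile taken over probes detected on every array 907 genes were higher and 724 lower. A change of at least 2-fold was seen in 619 of the higher and 735 of the lower genes. The CaCl2 arrays lay entirely above the sham arrays for 692 of the called genes and entirely below for 837. Over all genes, 30.3% were separated upwards and 21.6% downwards.

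The 6 arrays were of similar quality, with a 75th percentile of signal between 250 and 428 intensity units and 54.1% to 61.8% of probes well above background. Correlations across genes were 0.986 to 0.993 within the sham group, 0.986 to 0.991 within the CaCl2 group and 0.950 to 0.970 between them. An array outside the comparison, WT sham day 42 replicate 2, was dim (36.6% of probes well above background) and entered the shared estimate of spread. Without it 2167 genes were higher (9.31%) and 2116 lower (9.09%), and all 694 and 840 genes called with it were still called. Counts of list members without the dim array, given below, are to be read beside these shares. The errors given after ± rest on the shared estimate of spread, with the dim array in it. The median SD over genes was 0.983 in WT sham day 42, against 0.191 in WT sham day 7 and 0.203 in WT CaCl2 day 7.

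The CaCl2 arrays shared a slide with WT sham day 42 replicate 3 but with no day 7 sham array, so treatment and slide cannot be told apart in the direct comparison. With slide as a random block 33 genes were higher (0.142%) and 20 lower (0.086%), and without the dim array that block gave 3226 (13.9%) and 2808 (12.1%). With slide as a fixed term 51 were higher (0.219%) and 26 lower (0.112%). In that fit only WT sham day 42 replicates 1 and 3 link the sham slide to the CaCl2 slide, 1 array on each. The difference kept its direction there for 690 of the 694 higher and 838 of the 840 lower genes, which had been called on the same arrays. Of the 158 called genes that the naming rule covers, 8 were still called with the random block and 6 with the fixed term. All 158 were still called with the random block when the dim array was left out. Against WT sham day 42 replicate 3 on their own slide, the CaCl2 arrays differed in the same direction for 691 of the 694 higher and 836 of the 840 lower genes. All 3 CaCl2 arrays were beyond that array for 689 and 830 of them, compared with 40.4% above and 38.1% below over all genes. The calls had used the same CaCl2 arrays, and the reference is 1 array from day 42. These counts are therefore given as a description, and a slide effect was not tested by them. Leaving out any 1 of the 6 arrays lowered the counts, to 101 higher and 132 lower without CaCl2 replicate 3, and to 461 and 704 without CaCl2 replicate 1. Without sham replicate 1 they were 224 and 296, without sham replicate 2 251 and 372, without sham replicate 3 333 and 445, and without CaCl2 replicate 2 232 and 293.

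Genes of the contractile apparatus of smooth muscle were lower in CaCl2, and none of this list was higher. Of 29 tested genes in the list of 30, 20 were lower, with a median of -2.22 against 0.094 for all genes. The remaining 9 had differences below 0 as well, and the 6 arrays were separated downwards for 28 of the 29, against 21.6% of all genes. Acta2 codes for smooth muscle alpha-actin. Its level was 9.55, 9.45 and 9.75 in the sham arrays and 8.21, 7.04 and 7.30 in the CaCl2 arrays. The groups did not overlap, and Acta2 fell by 2.07 ± 0.53 (4.19-fold, adjusted p = 0.0204). Myh11, the smooth muscle myosin heavy chain, measured 6.58, 6.54 and 7.01 in sham and 4.87, 3.65 and 3.34 in CaCl2. It fell by 2.76 ± 0.68 (adjusted p = 0.0170). In both genes CaCl2 replicate 1 was the highest of its group, and still below every sham array.

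Proteins that control contraction followed the same direction. Mylk, the kinase that starts contraction by phosphorylating myosin light chain, fell by 2.55 ± 0.50 (adjusted p = 0.00572). Ppp1r14a, an inhibitor of the phosphatase that opposes Mylk, stood at 5.68, 5.06 and 4.74 in sham and at 2.76, 1.51 and 1.65 in CaCl2. Its fall of 3.19 ± 0.56 (9.1-fold, adjusted p = 0.00312) was among the larger ones of the list. The actin-binding calponin gene Cnn1 fell by 2.69 ± 0.60, the tropomyosin gene Tpm2 by 2.67 ± 0.47, caldesmon (Cald1) by 1.75 ± 0.33 and smoothelin (Smtn) by 2.17 ± 0.50. Kcnmb1, the beta subunit of the calcium-activated potassium channel that relaxes the vessel, fell by 3.05 ± 0.71 (adjusted p = 0.0123). Mrvi1, a target of cGMP-dependent kinase, fell by 2.46 ± 0.68.

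Adhesion and cytoskeletal genes of the same cells were lower too. Npnt, a basement membrane ligand of integrin alpha 8, measured 2.96, 2.67 and 2.96 in sham and -0.07, -1.10 and -1.31 in CaCl2. It fell by 3.69 ± 0.81 (12.9-fold, adjusted p = 0.00887). Its receptor Itga8 fell by 2.89 ± 0.85, from 7.35, 7.45 and 7.39 in sham to 5.30, 4.28 and 3.95 in CaCl2. Intermediate filament and actin-binding genes were also called, with desmin (Des) down by 2.95 ± 0.61, Lmod1 by 2.78 ± 0.75 and Synpo2 by 2.75 ± 0.74. Pln, the phospholamban gene, was well above background on all 3 sham arrays and on no CaCl2 array, at least 2.24-fold lower. Such a bound is used wherever a gene was not well above background on any array of the dimmer group. For each of those arrays it takes the gene's own signal or, if that is higher, the weakest signal still well above background there. Tagln (SM22 alpha) had levels of 9.59, 9.57 and 9.97 in sham and 8.83, 8.03 and 7.79 in CaCl2. Its difference of -1.49 ± 0.52 did not pass (adjusted p = 0.0879), although the groups did not overlap.

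Myocd codes for myocardin, the coactivator that drives contractile genes together with serum response factor at CArG boxes in their promoters. Its level was 2.87, 2.72 and 3.05 in sham and 0.74, 0.02 and -0.69 in CaCl2, a fall of 2.85 ± 0.67 (7.23-fold, adjusted p = 0.0129). A CArG box, searched on both strands in the 250 bases before each RefSeq start (GRCm38.p6), was found in 1.47% of all 32851 promoter windows. It was in the windows of 3.68% of 598 genes called lower, of 0.686% of 437 called higher and of 1.56% of the 12552 tested genes with a window. Among the 18 called contractile genes with a window, 1 had such a box there, Myl9, the regulatory myosin light chain that Mylk phosphorylates. Myl9 fell by 1.78 ± 0.45 (adjusted p = 0.0186), from 9.66, 9.65 and 9.92 in sham to 8.64, 7.59 and 7.66 in CaCl2. Its window at chr2:156775258-156775357 (plus strand) is printed to show that site, which spans bases -161 to -152 from the start and is in capitals.
Myl9: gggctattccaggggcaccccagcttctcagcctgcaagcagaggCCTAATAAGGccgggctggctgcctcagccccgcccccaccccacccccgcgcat

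**Figure D1:**
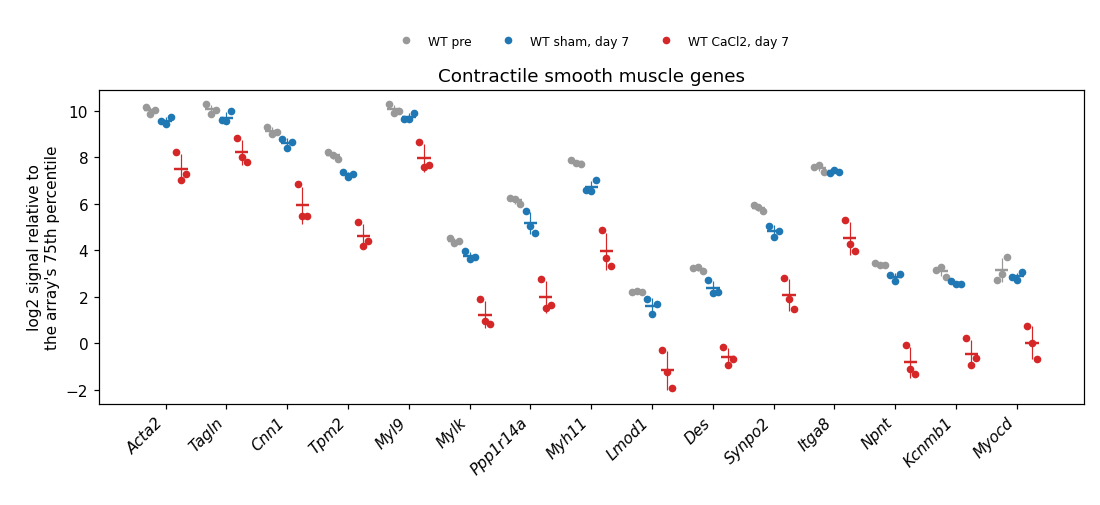
Levels of 15 contractile smooth muscle genes on each array (log2 signal, scaled to each array's 75th percentile) in WT pre (grey), WT sham day 7 (blue) and WT CaCl2 day 7 (red). Points are arrays, horizontal bars are group means and vertical bars are ± 1 SD (n = 3). For each gene the 3 CaCl2 arrays lie below the 3 sham arrays, as for Acta2 (7.04 to 8.21 against 9.45 to 9.75).

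In bulk tissue, fewer smooth muscle cells and less contractile RNA per cell cannot be told apart. The summed linear signal of the list, relative to the 75th percentile, was 3370 to 4070 on the sham arrays and 760 to 1520 on the CaCl2 arrays. Some markers of tissue that can be dissected with the aorta were lower too. Skeletal muscle genes, whose summed signal was 47.3 to 62.5 in sham and 8.61 to 15 in CaCl2, included 5 lower and 0 higher of 14 tested. Of 8 brown and 15 white adipocyte markers 1 each was lower, Cidea by 3.46 ± 0.89 and Plin4 by 2.82 ± 0.63. Of 12 Schwann cell and 6 sympathetic neuron markers 0 were lower, and 1 Schwann cell marker was higher. Of 3 tested kidney tubule markers 1 was lower (Slc22a2) and 1 higher (Aqp2). Of 3 pancreas markers 1 was lower (Amy2a5) and 0 higher, and of 3 adrenal cortex markers 0 were called. The part of these tissues in the contractile result was not tested. Endothelial markers had 0 of 22 called (1 higher without the dim array), and their summed signal was 187 to 211 in sham and 186 to 250 in CaCl2. Without CaCl2 replicate 1, 2 or 3, the contractile list held 20, 6 and 5 lower members, and without sham replicate 1, 2 or 3 it held 7, 11 and 11. It held 26 without the dim array, and 0 with slide as a fixed term or a random block. Against WT sham day 42 replicate 3 on the same slide the list's median was -2.61.

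Among the skeletal muscle genes, Mybpc2, which codes for a fast myosin-binding protein, measured -1.86, -1.84 and -2.02 in sham and -5.33, -6.60 and -5.44 in CaCl2, where no array was well above background (at least 6.83-fold lower, adjusted p = 8.04e-06). Casq1, the calcium store protein of fast fibres, fell by 3.62 ± 0.39 (adjusted p = 3.22e-05) and was above background on 1 of 3 CaCl2 arrays. The creatine kinase gene Ckm was measured on 1 sham array and 0 CaCl2 arrays, and its difference of -1.79 ± 0.66 did not pass (adjusted p = 0.107). Of the 5 lower members, 3 were still called with slide as a random block. Genes of calcium release were also lower: Ryr2, the ryanodine receptor of the sarcoplasmic reticulum, fell by 3.39 ± 0.77 (1 CaCl2 array above background) and the inositol trisphosphate receptor gene Itpr1 by 1.07 ± 0.29, which made 2 of 18 tested genes of calcium handling.

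Several cytokine genes rose. Of 12 tested genes of the interleukin 1 system 3 were higher and 0 lower, and of 12 of the interleukin 6 family 4 were higher and 0 lower. Il1b, the gene of the inflammatory cytokine interleukin 1 beta, measured -3.32, -3.47 and -3.01 in sham and 1.44, 0.76 and 2.34 in CaCl2. It rose by 4.78 ± 0.81 (27.5-fold, adjusted p = 0.00226). The decoy receptor gene Il1r2 rose by 2.45 ± 0.60 and the interleukin 18 receptor gene Il18r1 by 1.76 ± 0.38. Il1rn, which codes for the natural receptor antagonist, differed by 2.44 ± 0.77 and did not pass (adjusted p = 0.0561).

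Il6, whose product acts through gp130 and STAT3, measured -3.66, -3.69 and -3.04 in sham and 1.21, -0.48 and 2.06 in CaCl2. It rose by 4.39 ± 1.07 (21.0-fold, adjusted p = 0.0156), and CaCl2 replicate 2 was the lowest of its group. Il11, a fibrogenic member of the family, rose by 2.22 ± 0.59 and the receptor gene Il6ra by 0.86 ± 0.22. Socs3, a feedback inhibitor induced by STAT3, stood at 0.22, 0.41 and 1.14 in sham and at 3.39, 3.62 and 3.94 in CaCl2. The 4 called genes thus span ligands, a receptor and an inhibitor, with Socs3 up by 3.06 ± 0.66 (adjusted p = 0.00829). The shared receptor chain Il6st differed by -0.26 ± 0.78 (adjusted p = 0.9), a gene chosen after its values were seen. Leaving out 1 of the 6 arrays gave 0 (CaCl2 replicate 3) to 3 higher members of the interleukin 6 family and 1 (sham replicate 2) to 3 of the interleukin 1 system.

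Chemokines that attract neutrophils, with their receptor, had 3 of 5 genes higher and 0 lower. Their median was 4.01, or 2.14 with the 2 genes that no sham array measured set at their bound. Cxcl5 measured -5.03, -2.13 and -2.23 in sham, with 2 of 3 arrays above background, and 1.44, 0.82 and 2.82 in CaCl2. It rose by 4.82 ± 0.90 (28.3-fold, adjusted p = 0.00399). Cxcl3 and the neutrophil receptor gene Cxcr2 were above background on no sham array and on all 3 CaCl2 arrays. They were at least 6.91-fold and at least 4.41-fold higher. Cxcl1 differed by 2.14 ± 0.67 and Ppbp by 2.07 ± 1.24, and neither passed (adjusted p = 0.0561 and 0.377). The count of 3 was 1 without CaCl2 replicate 3 and 3 without each of the other arrays.

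Markers of neutrophils themselves were called in 0 of 16 cases with limma over all arrays and in 6, all higher, without the dim array. S100a9, a calgranulin abundant in neutrophils, measured -3.21, -1.86 and -0.61 in sham and 2.81, 2.27 and 4.77 in CaCl2. Its groups were far apart, yet the difference of 5.18 ± 1.64 did not pass (adjusted p = 0.0594, and 0.0368 without the dim array). S100a8 differed by 3.36 ± 1.13 (adjusted p = 0.0769). Stefin genes carried by myeloid cells, inhibitors of cathepsins, were called in 3 of the 10 tested stefin and acute phase genes. Stfa3 rose by 4.39 ± 0.82 (adjusted p = 0.00399), Cstdc4 was at least 5.01-fold and Stfa2l1 at least 3.4-fold higher, and these near-identical family members may share signal. The acute phase gene Saa1 differed by 0.84 ± 0.46.

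Motifs for AP-1 and NF-kB, transcription factors that act on cytokine and protease genes, were searched in the same 250-base windows. AP-1 was searched as TGANTCA, which reads the same on both strands, and NF-kB by its 10-base consensus on both strands. NF-kB motifs were in the windows of 15.6% of genes called higher, 10% of genes called lower and 10.4% of tested genes, and in 7.25% of all promoter windows. AP-1 motifs were in 9.15%, 5.02% and 6.13% of those genes and in 6.75% of all windows. A match is a description of the letters and no measure of binding. The windows of 6 higher genes are printed to show the motif nearest the start, in capitals, with NF-kB in the first 3 and AP-1 in the last 3. They lie at chr5:30013014-30013113 (Il6, plus strand), chr5:90785984-90786083 (Cxcl3, plus), chr1:160153602-160153701 (Tnn, minus), chr9:7272414-7272513 (Mmp13, plus), chr7:4778187-4778286 (Il11, minus) and chr11:46055806-46055905 (Adam19, plus). In Cxcl3 the capitals join a pair of overlapping matches that begin at bases -73 and -72 from the start. The Adam19 window also holds overlapping NF-kB matches that begin at bases -112 and -111. They are nearer the start than its AP-1 match and are left in lower case.
Il6: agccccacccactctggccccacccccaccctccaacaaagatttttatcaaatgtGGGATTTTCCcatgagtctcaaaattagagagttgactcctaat
Cxcl3: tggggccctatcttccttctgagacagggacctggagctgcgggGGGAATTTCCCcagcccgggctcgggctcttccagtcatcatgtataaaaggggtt
Tnn: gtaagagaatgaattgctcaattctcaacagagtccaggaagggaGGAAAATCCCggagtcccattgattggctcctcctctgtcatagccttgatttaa
Mmp13: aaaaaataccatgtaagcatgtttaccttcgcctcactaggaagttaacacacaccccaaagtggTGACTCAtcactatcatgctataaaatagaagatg
Il11: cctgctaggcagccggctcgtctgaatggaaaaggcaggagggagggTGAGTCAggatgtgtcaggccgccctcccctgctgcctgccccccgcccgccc
Adam19: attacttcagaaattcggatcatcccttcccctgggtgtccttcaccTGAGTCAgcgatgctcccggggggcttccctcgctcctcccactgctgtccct

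Matrix metalloproteinases moved in both directions, with 3 of 13 tested genes higher and 2 lower. Mmp13 codes for a collagenase. Its level was -3.90, -4.28 and -4.29 in sham, where 2 arrays were above background, and 0.63, 0.17 and 3.69 in CaCl2. It rose by 5.65 ± 1.23 (50.2-fold, adjusted p = 0.00887), and CaCl2 replicate 3 was the highest of its group by more than 3 log2 units. The membrane-bound Mmp14 measured 0.88, 1.07 and 0.98 in sham and 2.70, 2.69 and 3.27 in CaCl2. It rose by 1.91 ± 0.33 (adjusted p = 0.00275), with a narrow spread in both groups. The neutrophil collagenase gene Mmp8 was above background on no sham array, and at least 3.6-fold higher in CaCl2. The lower genes were Mmp17 by 2.45 ± 0.57 and Mmp23 by 0.97 ± 0.29, and both lay between 3.03 and 4.85 in sham. Leaving out 1 array gave 1 (CaCl2 replicate 3) to 3 higher and 0 to 1 lower members.

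The gelatinases Mmp2 and Mmp9, which can degrade elastin, did not pass. Mmp9 measured -3.48, -3.42 and -5.23 in sham and -1.13, -0.58 and 2.48 in CaCl2, a difference of 4.30 ± 1.36 (adjusted p = 0.0577, and 0.0355 without the dim array). Mmp2 measured 3.97, 4.20 and 4.06 in sham and 4.24, 3.72 and 4.68 in CaCl2. The Mmp2 groups overlapped, with a difference of 0.13 ± 0.87 (adjusted p = 0.959). Macrophage elastase, Mmp12, differed by 1.54 ± 0.81 (adjusted p = 0.294) after a level of -5.95 in pre and 1.19 in sham. Mmp3 differed by 0.66 ± 0.52.

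Of 21 ADAM and ADAMTS proteases tested 4 were higher and 2 lower. Adamts4, which cleaves aggrecan and versican, measured -0.54, -0.52 and 0.01 in sham and 2.01, 2.30 and 3.21 in CaCl2. It rose by 2.86 ± 0.67 (7.24-fold, adjusted p = 0.0130). Adamts16 was above background on no sham array and at least 4.86-fold higher, Adamts17 rose by 1.76 ± 0.45 and Adam19 by 0.91 ± 0.25. Adamts8 fell by 1.51 ± 0.38 and Adamts14 by 1.02 ± 0.31. The inhibitors of metalloproteinases split. Timp1 rose by 1.76 ± 0.42 (adjusted p = 0.0142), from 4.98, 4.71 and 5.25 in sham to 6.98, 6.14 and 7.09 in CaCl2. Timp4 fell by 3.31 ± 0.54 (9.94-fold, adjusted p = 0.00177), from 2.86, 2.60 and 2.76 to -0.06, -0.58 and -1.08. Timp3 differed by -0.80 ± 0.28 (adjusted p = 0.0904), and 0 of 16 cathepsins and plasminogen activator genes passed (4 higher and 1 lower without the dim array). With 1 array left out the ADAM list held 0 (CaCl2 replicate 3) to 3 higher and 0 to 1 lower members, and Timp4 was called every time.

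**Figure D2:**
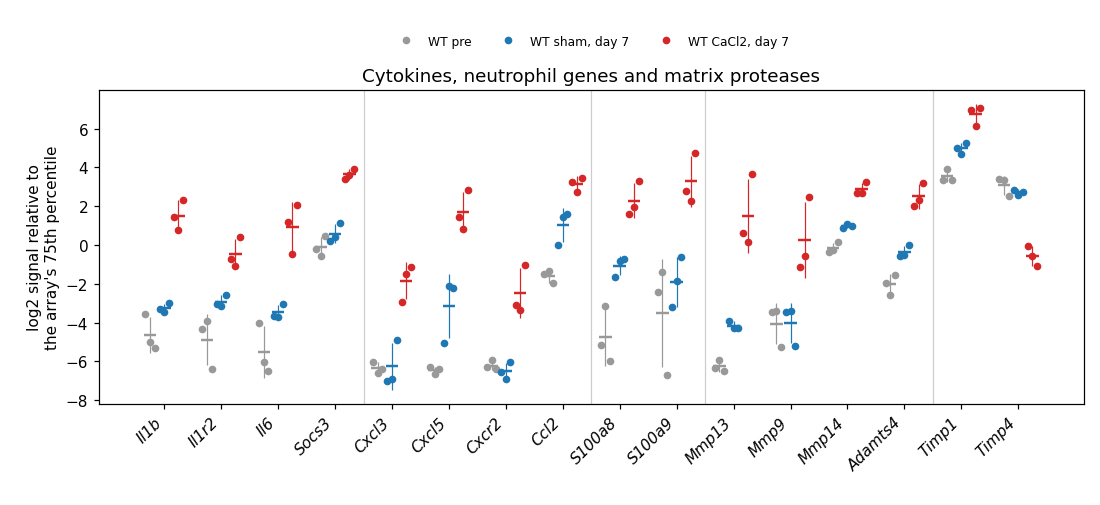
Levels on each array (log2 signal, scaled to each array's 75th percentile) of cytokine, chemokine, neutrophil, protease and protease inhibitor genes in WT pre (grey), WT sham day 7 (blue) and WT CaCl2 day 7 (red). Points are arrays, horizontal bars are means and vertical bars ± 1 SD (n = 3). CaCl2 lies above sham for each gene except Timp4, which falls from 2.60 to 2.86 in sham to -1.08 to -0.06.

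In the recruited macrophage list 5 of 17 tested genes were higher and 0 lower, with a median of 1.51. The same genes had a median of 2.78 in sham minus pre, a difference that was not tested. Both differences use the sham arrays, so they are given side by side and not related to each other. Arg1, which marks macrophages of repair and competes for arginine with nitric oxide synthase, measured -2.44, -4.00 and -3.32 in sham and -0.24, -0.29 and 0.60 in CaCl2. It rose by 3.28 ± 0.89 (adjusted p = 0.0281), while Nos2, that synthase, rose by 1.25 ± 0.31 (adjusted p = 0.0162). The scavenger receptor gene Msr1 rose by 1.71 ± 0.46 and Ms4a7 by 1.65 ± 0.48. Without CaCl2 replicate 1, 2 or 3 the list's count was 2, 1 and 0, and it was 0 without any 1 sham array.

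Of 15 general macrophage markers 1 was called. Cd68, a lysosomal glycoprotein, measured 4.75, 5.19 and 4.68 in sham and 5.54, 6.13 and 6.49 in CaCl2, against a pre mean of 0.79. Its CaCl2 arrays lay above every sham array, but the difference of 1.18 ± 0.75 did not pass (adjusted p = 0.411). Adgre1 (F4/80) differed by 1.0 ± 0.76 (adjusted p = 0.516). Aif1 was the marker called, up by 1.82 ± 0.38 (adjusted p = 0.00756). Spp1, the osteopontin gene, measured 3.37, 3.93 and 3.03 in sham and 6.23, 6.70 and 7.16 in CaCl2, after a pre mean of -3.91. Its difference of 3.25 ± 1.17 did not pass (adjusted p = 0.101, and 0.0481 without the dim array).

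Resident adventitial macrophage markers showed another pattern, with 2 of 18 lower and 0 higher. Cd163, a haemoglobin scavenger receptor, measured -2.77, -3.36 and -2.98 in sham and -6.58, -6.59 and -7.13 in CaCl2, where no array was above background (at least 3.12-fold lower, adjusted p = 2.72e-04). Cbr2 fell by 2.84 ± 0.59 (adjusted p = 0.00715), from 7.35, 7.51 and 7.18 to 5.19, 4.10 and 4.23. Retnla differed by -3.31 ± 1.13 (adjusted p = 0.0820). The list's median was -0.09. Hmox1, which degrades the haem that Cd163 takes up with haemoglobin, rose by 3.80 ± 0.73 (adjusted p = 0.00460), the 1 higher of 11 haem, iron and NRF2 genes.

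The Fc receptor and Syk signalling list had 6 of 19 tested genes higher and 0 lower, and a median of 1.45. The arrays were separated upwards for 18 of 19, against 30.3% of all genes. Without the dim array 13 were higher (9.31% of all genes), and with slide as a random block or a fixed term 0 were. Syk itself measured 2.22, 2.49 and 2.28 in sham and 3.31, 3.94 and 3.77 in CaCl2, with a pre mean of 0.45. The groups did not overlap, but the difference of 1.34 ± 0.46 (2.53-fold) did not pass (adjusted p = 0.0827, and 0.0146 without the dim array). Fcgr1, the high-affinity IgG receptor gene, rose by 1.57 ± 0.46 (adjusted p = 0.0387). Upstream of Syk, the Src family kinases Fgr and Lyn rose by 2.56 ± 0.64 and 1.68 ± 0.48.

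Downstream of Syk, the kinase gene Btk measured -3.37, -3.16 and -1.05 in sham and 0.49, 1.17 and 0.92 in CaCl2. It rose by 3.39 ± 0.66 (10.5-fold, adjusted p = 0.00512), with sham replicate 3 above the other sham arrays. The adaptor gene Lcp2 (SLP-76) rose by 1.83 ± 0.44 and Pik3cd, a phosphoinositide 3-kinase subunit of leukocytes, by 1.45 ± 0.29 (adjusted p = 0.00657). Of the macrophage markers, 5 of 17 recruited ones were higher too, with Fcgr1 in both lists. General markers had 1 of 15 higher, and resident markers had 0 higher and 2 lower of 18. The part of macrophages in the Fc receptor and Syk list was not tested. In sham minus pre the median of the Fc receptor and Syk list was 2.0. The count was 2 without CaCl2 replicate 2 or 3 or sham replicate 1, 3 without sham replicate 2 or 3, and 4 without CaCl2 replicate 1.

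CC chemokines and receptors had 2 of 16 higher, 0 lower and a median of 1.53. Ccl17, a ligand of CCR4, rose by 3.02 ± 0.86 (adjusted p = 0.0360), and the receptor gene Ccr1 by 2.42 ± 0.68, with 1 sham array above background. Ccl2, the monocyte chemoattractant, measured 0.02, 1.43 and 1.63 in sham and 3.28, 2.73 and 3.47 in CaCl2. Its difference of 2.13 ± 0.84 did not pass (adjusted p = 0.139, and 0.0380 without the dim array). The count of 2 was 1 without CaCl2 replicate 1 and 0 without any other array.

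Lymphocyte genes rose for a few members. T and NK cell genes had 3 of 19 higher and 0 lower, among them Foxp3, the regulatory T cell factor, by 1.40 ± 0.33 (adjusted p = 0.0125) and Icos by 1.80 ± 0.53. B cell genes had 2 of 12 higher, Cd37 by 1.06 ± 0.31 and the BAFF receptor gene Tnfrsf13c by 2.15 ± 0.58 (1 sham array above background). Jchain, which joins secreted IgM and IgA and marks antibody-secreting cells, measured -2.71, -2.92 and -4.68 in sham, with 2 arrays above background, and 0.38, 0.31 and 1.29 in CaCl2. It rose by 4.10 ± 1.02 (17.1-fold, adjusted p = 0.0172), and Prdm1, the regulator of plasma cell fate, by 1.66 ± 0.49. Genes of homing to lymphoid tissue were also higher in 2 of 9 cases. The chemokine receptor gene Ccr7 rose by 3.67 ± 0.85, and Glycam1, a ligand of L-selectin, was at least 7.57-fold higher. Leaving out CaCl2 replicate 3 gave 0 higher T and NK, B and plasma cell genes and 1 homing gene, and leaving out any other array gave 0 to 2, 0 to 2, 0 to 1 and 1 to 2.

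Of 8 mast cell genes tested 4 were lower and 0 higher, with a median of -2.06. The chymase gene Cma1 measured 0.04, -0.75 and 0.35 in sham and -4.74, -3.76 and -3.00 in CaCl2, with 2 CaCl2 arrays above background. It fell by 3.71 ± 0.73 (13.1-fold, adjusted p = 0.00521). Mcpt4 fell by 2.96 ± 0.67 and the carboxypeptidase gene Cpa3 by 3.10 ± 0.91. Fcer1a, the IgE receptor chain, was above background on no CaCl2 array, at least 7.86-fold lower. Kit differed by -1.15 ± 0.62 and Hdc by 1.33 ± 0.64, and neither passed (adjusted p = 0.311 and 0.244). In sham minus pre the list's median was 0.42. Without 1 array at a time between 2 and 3 members were lower.

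Of 14 markers of quiescent adventitial fibroblasts 4 were lower and 0 higher (median -1.04). Pcolce2, a procollagen processing enhancer, fell by 2.50 ± 0.41 (adjusted p = 0.00191), from 3.06, 3.11 and 3.25 to 0.89, 0.74 and 0.29, and Gpc3 fell by 2.07 ± 0.44. Of 14 markers of activated fibroblasts 5 were higher and 0 lower (median 1.13). Fap, a protease that marks them, measured 3.57, 3.81 and 3.57 in sham and 4.92, 4.6 and 5.15 in CaCl2, a rise of 1.24 ± 0.28 (adjusted p = 0.0100). Runx1 rose by 2.67 ± 0.47 (adjusted p = 0.00312) and the BMP inhibitor Grem1 by 2.20 ± 0.58 (2 sham arrays above background). Leaving out CaCl2 replicate 3 gave 1 lower and 2 higher members, and any other array 2 to 4 lower and 3 to 4 higher. Tenascin genes differed from each other. Tnn (tenascin N) was above background on no sham array, at least 19-fold higher, whereas Tnc differed by 0.29 ± 0.53 (adjusted p = 0.826) and the matricellular Postn by -0.22 ± 0.43 (adjusted p = 0.834).

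Of 30 collagen genes tested 7 were higher and 3 lower. Col1a1 and Col3a1, the main collagens of the wall, differed by 0.35 ± 0.33 and 0.26 ± 0.23 (adjusted p = 0.621 and 0.583). Col11a1, a fibril-nucleating chain best known from cartilage, measured -3.35, -3.49 and -3.95 in sham and 0.97, 0.38 and 1.96 in CaCl2. It rose by 4.70 ± 0.66 (26.0-fold, adjusted p = 8.30e-04). Type V chains (Col5a2 by 1.17 ± 0.27, Col5a3 by 2.20 ± 0.62) and type VIII chains (Col8a1 by 1.87 ± 0.51, Col8a2 by 2.32 ± 0.71) were higher. Basement membrane chains Col4a3 and Col4a4 fell by 2.43 ± 0.71 and 1.91 ± 0.48, and Col19a1 was above background on no CaCl2 array, at least 4.12-fold lower. Dropping CaCl2 replicate 3 left 1 collagen higher and 1 lower, and dropping any other array left 2 higher and 1 to 3 lower.

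Elastic fibre genes changed in few cases, with 2 higher and 1 lower of 17. Eln, the elastin gene, measured 4.48, 3.87 and 3.65 in sham and 3.51, 2.90 and 3.32 in CaCl2. All CaCl2 values were below the sham values, but the difference of -0.76 ± 0.74 was about as large as its error (adjusted p = 0.634). Fbn2, a fibrillin of developing microfibrils, measured -1.81, -1.87 and -2.37 in sham and 0.78, 0.58 and 2.45 in CaCl2. It rose by 3.28 ± 0.70 (adjusted p = 0.00820), and Ltbp2 rose by 2.12 ± 0.40. Ltbp1, which tethers latent TGF-beta to the matrix, fell by 1.56 ± 0.43. The crosslinking enzyme gene Lox differed by 0.55 ± 0.71 (adjusted p = 0.739), and 0 of 16 TGF-beta pathway genes passed with limma (2 higher without the dim array), Tgfb1 at 0.54 ± 0.41.

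Of 16 tested cartilage genes 6 were higher, Col11a1 among them, and 3 were lower. Sox9, the master factor of chondrocytes, measured -4.37, -4.26 and -4.06 in sham, with 2 arrays above background, and -1.96, -1.81 and -1.02 in CaCl2. It rose by 2.63 ± 0.62 (6.2-fold, adjusted p = 0.0135). Col2a1, the main cartilage collagen, was above background on no sham array and at least 7.92-fold higher. Matn3 rose by 2.69 ± 0.66 (1 sham array above background), Col9a2 by 1.32 ± 0.39 and the lubricin gene Prg4 by 2.84 ± 0.61. Not all members followed. Sox6, a partner of Sox9, was above background on no CaCl2 array, at least 3.64-fold lower. The link protein gene Hapln1 fell by 2.97 ± 0.65, from 0.94, 1.67 and 1.28 to -0.70, -1.32 and -2.99, and Cytl1 fell by 2.02 ± 0.55. Dropping CaCl2 replicate 3 left 1 higher and 0 lower, and dropping any other array left 3 to 5 higher and 1 to 3 lower.

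Bone genes were not called in any of 9 cases with limma (2 higher and 2 lower without the dim array). Runx2, the osteoblast factor, measured -7.11, -4.18 and -5.60 in sham, 1 array above background, and -3.48, -4.18 and -3.83 in CaCl2. The groups overlapped, and the difference of 1.80 ± 0.67 did not pass (adjusted p = 0.112). Alpl, the tissue non-specific alkaline phosphatase, differed by -0.41 ± 0.55 (adjusted p = 0.751). Mgp, an inhibitor of vascular calcification, measured 9.36, 9.41 and 9.68 in sham and 9.55, 9.42 and 9.30 in CaCl2 and differed by -0.06 ± 0.42. Among genes of phosphate handling, the transporter gene Slc20a1 (PiT-1) rose by 1.42 ± 0.37 and the ATP-degrading ectoenzyme gene Entpd1 fell by 1.15 ± 0.26.

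Osteoclast genes rose in 3 of 11 cases and fell in none, with a median of 1.40 (1.07 with 2 genes set at their bound). Tnfsf11 (RANKL), the cytokine that forms osteoclasts, measured -5.18, -5.01 and -5.08 in sham, with no array above background, and -1.59, -1.01 and 0.37 in CaCl2, at least 14.7-fold higher (adjusted p = 0.00985). The fusion proteins Dcstamp and Ocstamp rose by 2.67 ± 0.80 and 2.09 ± 0.55. Acp5 differed by 1.89 ± 0.75 and did not pass (adjusted p = 0.140). The count was 0 without CaCl2 replicate 3, 2 without replicate 1 and 1 without any other array.

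Secreted inhibitors of Wnt signalling included genes that fell. Sost codes for sclerostin, an inhibitor of bone formation that aortic smooth muscle also makes. It measured 0.18, -0.42 and -0.71 in sham and -4.14, -6.36 and -5.40 in CaCl2, where 1 array was above background. It fell by 4.99 ± 0.76 (adjusted p = 0.00145), a size that rests in part on 2 CaCl2 arrays not above background. Dkk1 was above background on 2 sham arrays and no CaCl2 array, at least 2.84-fold lower. Sfrp1 rose by 1.6 ± 0.44, so the 17 tested inhibitors of Wnt and BMP had 2 members higher (Grem1 being the other) and 2 lower. Both lower members were still called without any 1 array.

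**Figure D3:**
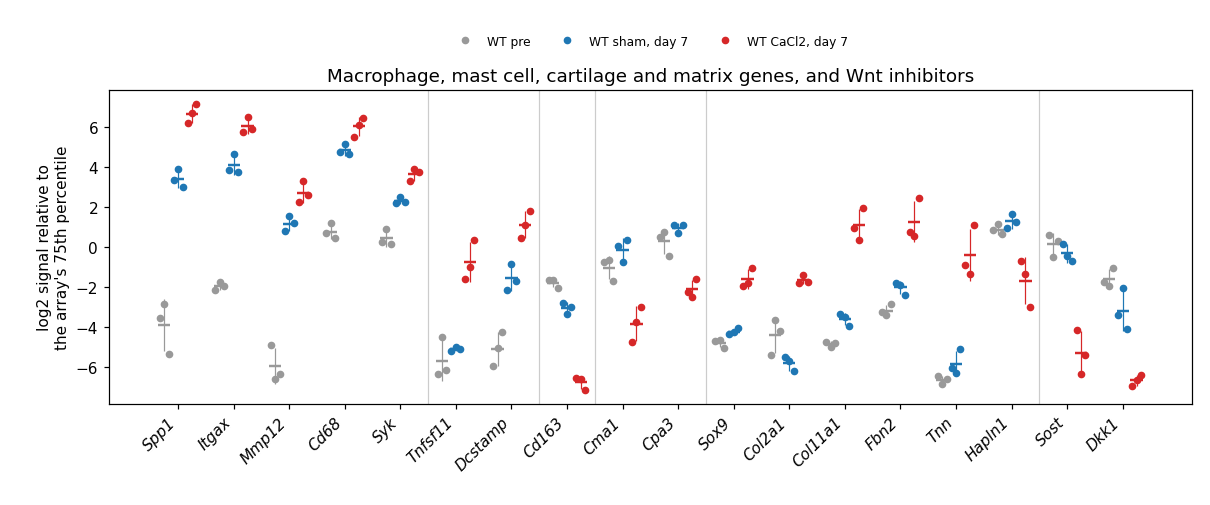
Levels on each array (log2 signal, scaled to each array's 75th percentile) of macrophage genes and Syk, osteoclast genes, Cd163, mast cell genes, cartilage and matrix genes and Wnt inhibitors in WT pre (grey), WT sham day 7 (blue) and WT CaCl2 day 7 (red). Points are arrays, horizontal bars are means and vertical bars ± 1 SD (n = 3). Spp1, Itgax, Mmp12 and Cd68 are far higher in sham than in pre, whereas Col11a1 and Fbn2 change more between sham and CaCl2, and Sost falls from -0.71 to 0.18 in sham to -6.36 to -4.14.

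Other members had large changes as well. Among the 15 largest fitted rises, which have no order where a group was not above background, were Tac1, the substance P precursor, at least 4.41-fold higher, Edil3, an integrin ligand, at least 6.18-fold higher, and Brinp3, at least 6.75-fold higher, none of them above background in sham. Among the largest falls was the organic cation transporter gene Slc22a2, a member of the kidney tubule list. It was above background on 1 CaCl2 array and fell by 4.30 ± 0.83. The methyltransferase gene Inmt fell by 3.98 ± 0.86 and the desmosomal gene Dsp by 3.70 ± 0.83. Nox4, the constitutive oxidase of vascular cells, fell by 2.42 ± 0.62 (adjusted p = 0.0199), from 5.0, 5.11 and 5.24 to 3.19, 2.71 and 2.21. Ptgis, prostacyclin synthase, fell by 2.14 ± 0.42 (adjusted p = 0.00489), from 7.27, 6.93 and 7.65 to 5.58, 5.19 and 4.66. Proliferation genes had 0 of 21 called with limma (2 higher without the dim array, where 9.31% of all genes were higher). The 6 arrays were separated upwards for 18 of the 21 and downwards for 1, against 30.3% and 21.6% of all genes. The median of that list was 0.75. Mki67 measured 1.49, 1.34 and 1.82 in sham and 2.86, 2.53 and 2.84 in CaCl2 (adjusted p = 0.227), after a pre mean of -0.89.

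The pre arrays shared the slide of the sham arrays. Of the 694 higher genes, 231 were already at least 1 log2 unit higher in sham than in pre, which is 33.3% of them against 5.79% of all genes. Of the 840 lower genes 45 were at least 1 unit lower in sham than in pre, 5.36% against 1.51% of all genes. These shares use the same sham arrays as the calls and are given as a description. The CaCl2 arrays lay beyond all 6 pre and sham arrays for 680 of the higher and 827 of the lower genes, most of which the call had already separated from sham, and for 23.6% and 18% of all genes. The median of sham minus pre was 0.59 for the higher genes, -0.31 for the lower genes and -0.59 for the contractile list. It was 2.78 for the recruited macrophage list, 2.0 for the Fc receptor and Syk list and 2.01 for the proliferation list.

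**Figure D4:**
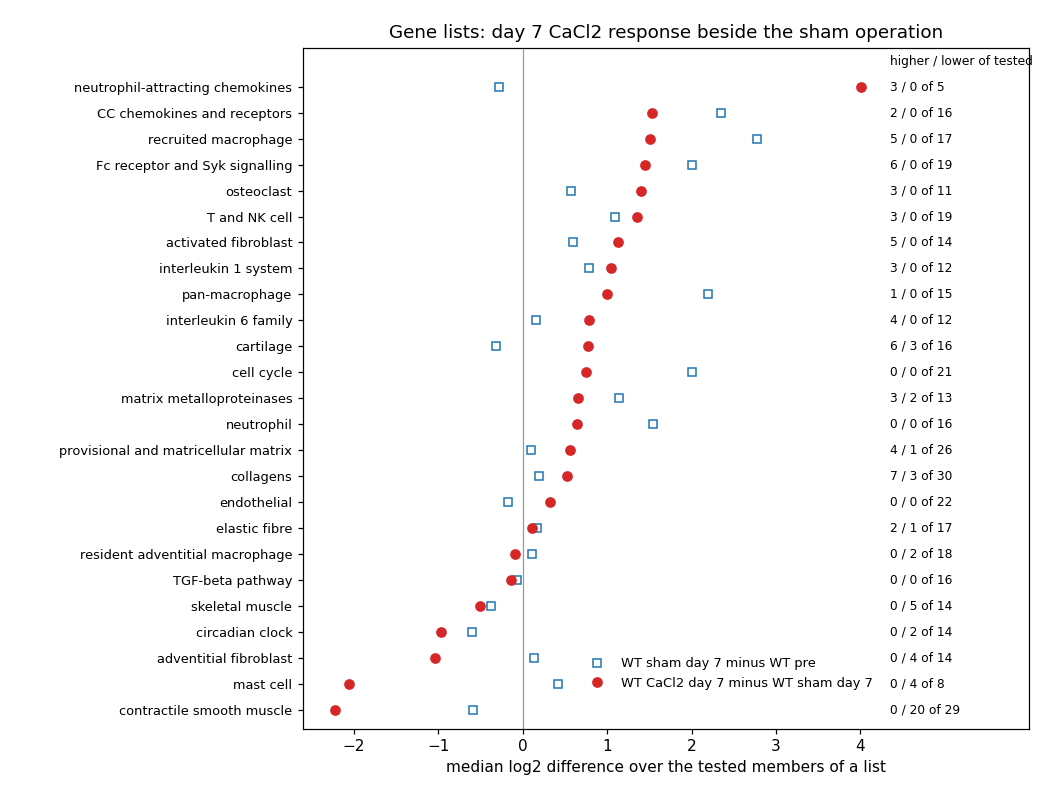
Median log2 difference over the tested members of gene lists, for WT CaCl2 minus WT sham at day 7 (red circles) and WT sham day 7 minus WT pre (blue squares), with the number of members higher and lower in CaCl2 of those tested. Both differences use the same sham arrays, so their relation is not a result. The contractile list has the lowest CaCl2 median, -2.22, and the neutrophil-attracting chemokines the highest, 4.01 (2.14 with 2 genes at their bound).

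The same treatment was given to uMT mice, on arrays that share no sample with the WT comparison, and the 3 uMT CaCl2 arrays differed widely from each other. Against the uMT sham mean, the genes higher in WT had a median difference of 1.69 on replicate 1, 0.61 on replicate 2 and 0.46 on replicate 3. For the genes lower in WT these medians were -1.88, -0.42 and -0.29. Replicate 1 was thus close to the WT medians of 1.65 and -1.80, where the genes had been chosen, and the other arrays were nearer to sham. Over replicates 2 and 3 alone, 85.3% of the higher genes were above 0 (47.2% of all genes) and 78.1% of the lower genes below 0 (52.8% of all). With all 3 arrays these shares were 95.2% (48.5% of all) and 95.8% (51.5% of all), with medians of 0.91 and -0.87.

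Single genes showed the same split. Acta2 measured 9.44, 9.55 and 9.45 on the uMT sham arrays and 7.13, 9.34 and 9.99 on the uMT CaCl2 arrays, so only replicate 1 lay clearly below sham. The contractile list had medians of -2.35, -0.45 and 0.03 on the 3 CaCl2 arrays, and 0 of its 29 genes passed in uMT. Col11a1 measured -4.28, -4.42 and -3.70 in uMT sham and 2.40, -0.98 and -1.28 in uMT CaCl2, with all CaCl2 arrays above sham. It passed in uMT (4.18 ± 0.66), as did Il1b (3.36 ± 0.81), Sost (-3.93 ± 0.76) and Cma1 (-3.47 ± 0.73). Jchain differed by 0.91 ± 1.02. The uMT comparison called 117 genes upwards (0.503%) and 91 downwards (0.391%), and 74 and 50 of them were among the WT genes. Without uMT CaCl2 replicate 1 only 4 genes were called, without replicate 2 or 3 392 and 317, and without uMT sham replicate 1, 2 or 3 12, 14 and 17.

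The difference between genotypes was tested as an interaction, and 0 genes passed with limma (smallest adjusted p = 0.246), with 981 at an unadjusted p under 0.05. No genotype difference in any named gene can therefore be stated from this fit. With only the groups of the comparison in the fit 16 genes passed, and with array weights 2522. In uMT no slide held both CaCl2 and sham arrays, so slide and treatment cannot be told apart there.

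**Figure D5:**
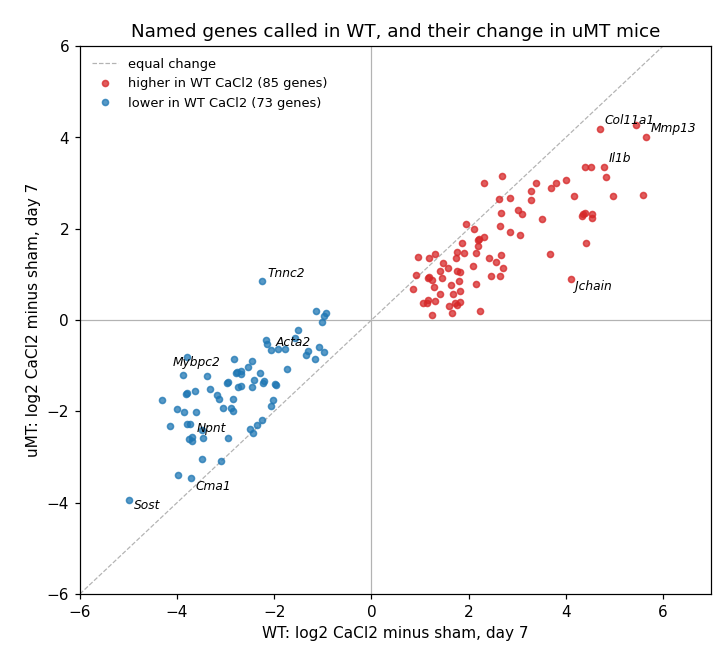
Log2 CaCl2 minus sham at day 7 in WT (horizontal) and uMT mice (vertical) for the 158 named genes called in WT, 85 higher (red) and 73 lower (blue), with the line of equal change dashed. Each point is a gene, with 3 arrays in every group. In uMT means, which rest largely on CaCl2 replicate 1, 154 keep the direction and 149 have the smaller absolute difference, and Tnnc2 (0.85), Synm (0.20), Atp2a1 (0.15) and Cry2 (0.09) have the opposite sign. The genes were chosen for their change in WT, which by itself favours a smaller difference in uMT, so the count of 149 is no result on genotype.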

How the data were processed

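Total RNA of 30 aortic samples (10 groups of 3) was hybridised to single-colour Agilent arrays. The deposited intensity values were made with Feature Extraction, version 10.7.1.1 per the file headers and 9.5.1.1 per the submitters' processing notes, with spatial and multiplicative detrending switched on per the file headers. Here the log2 of the processed intensity was scaled to each array's 75th percentile. Of 55657 probes, 33228 were well above background on all 3 arrays of at least 1 group, and the brightest kept probe stood for its gene (23268 genes). Probes were named through RefSeq, 27221 by accession, 3581 by symbol and 565 by synonym, and 24290 kept the file's name. A model of 10 group means over all 30 arrays was fitted with limma 3.58.1 in R 4.3.3 (20 residual degrees of freedom), with Benjamini-Hochberg adjustment at 0.05. The fit was tested on simulated data with independent noise, which held neither a slide effect nor a dim array. Named were the 15 largest separated rises and falls among called genes, up to 6 members with the smallest p and every called member of each of 61 lists, and a short set of aneurysm genes. The members and lists were chosen with earlier results of these data known. Promoter windows came from RefSeq (GRCm38.p6). Alternatives were other scalings, background corrections, filters, probe rules, sample sets, array weights, slide terms and a replicate block. The number of arrays limits the precision. Some genes that the rule names are not reported here.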

Additional observations from a re-analysis of the deposited data

How the results depend on the processing

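The 694 higher and 840 lower genes of the WT comparison stayed within 1.5 times under quantile normalization (486 and 674), the authors' matrix (468 and 669), normexp (882 and 865), a percentile over probes detected on all arrays (907 and 724), a filter of 15 arrays (584 and 795) and the mean of a gene's probes (831 and 969). With no filter they were 436 and 589, over more genes. They rose to 2167 and 2116 without the dim array, 4682 and 3167 with the compared groups only, and 6632 and 5182 with array weights, whose iteration stopped before it converged. Slide as a random block gave 33 and 20, without the dim array 3226 and 2808, and slide as a fixed term 51 and 26. The correlation within slides was 0.782 with the dim array, the only array on its slide, and -0.0687 without it. Leaving out 1 array gave 101 to 461 higher and 132 to 704 lower genes, with fewer samples. Of the 158 named genes called, 118 to 158 were still called in the same direction under the scalings, sample sets, probe rules and no filter, and 136 of 137 under the filter of 15 arrays. It was 8 with slide as a random block, 158 with that block without the dim array, 6 with slide as a fixed term and 37 to 125 with 1 array left out. Mag was the 1 gene among them that reversed, to -0.030 with slide as a fixed term. The cause was not tested.

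In uMT 208 genes were called. The count was 323 with normexp, 88 with quantile normalization, 89 with the authors' matrix, 39 with no filter, 0 with the compared groups only, 2284 without the dim array and 4508 with array weights. It was 0 with slide as a random block, 4086 with that block without the dim array, and 4 to 392 with 1 array left out. The genotype difference, with 0 genes called by limma and 981 at an unadjusted p under 0.05, gave 16 with the compared groups only, 2522 with array weights, 47 with the slide block without the dim array and 0 to 3 with 1 array left out. Slide as a fixed term could not be estimated for either. The cause of these shifts was not tested.

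The labels do not state that replicate numbers pair the samples. Deviations of same-numbered sham and CaCl2 arrays correlated at 0.082, -0.141 and -0.181, with a mean of 0.039 for different numbers. No strong shared deviation was seen, but so few arrays cannot exclude a pairing. A replicate block gave 639 higher and 747 lower genes in WT, 110 in uMT and 0 for the genotype difference.

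Signal over background limited the lowest levels: 73 higher genes had no sham array and 84 lower genes no CaCl2 array well above background. Of the 435 called genes with several kept probes, 38 had probes that differed in opposite directions.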

Other observations

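Some genes of vascular tone outside the contractile list were lower in CaCl2. Not all went that way, and the prostaglandin receptor gene Ptger2 rose by 1.83 (adjusted p = 0.0432, limma). All genes in this section were chosen after their values were seen, so they describe single genes and not a group. Npy1r, a receptor for the sympathetic transmitter neuropeptide Y, measured 3.89, 3.84 and 4.34 in sham and 1.56, 0.92 and 0.25 in CaCl2, a fall of 3.12 ± 0.58 (adjusted p = 0.00399, limma). The serotonin receptor gene Htr1b was well above background on no CaCl2 array and at least 5.43-fold lower. The ATP-gated channel gene P2rx1 fell by 2.53 ± 0.55 and the adrenergic receptor gene Adra2c by 2.34 ± 0.57. On the relaxing side, the nitric oxide receptor subunit Gucy1b1 fell by 2.02 ± 0.48 and the cGMP-dependent kinase gene Prkg1 by 2.17 ± 0.55. Of potassium channel genes, Kcnh2 was lower by 2.28 ± 0.54 and Kcna5 by 2.16 ± 0.46 on its brightest probe. The other kept Kcna5 probe differed by only -0.16, so the fall of that gene rests on 1 probe.

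Among genes that rose were both members of a ligand and receptor pair: Tac1, described above, and Tacr1, the substance P receptor gene, which was above background on no sham array and at least 3.28-fold higher (adjusted p = 0.0101). The kininogen genes Kng1 and Kng2, precursors of bradykinin, rose by 3.10 ± 0.58 and 2.90 ± 0.60, and signal between these paralogues may be shared. Hmga2, a chromatin protein of growing tissue, measured -2.74, -2.64 and -2.59 in sham and -0.65, -0.42 and -0.76 in CaCl2, a rise of 2.05 ± 0.31 (adjusted p = 0.00145). The Wnt5a receptor gene Ror2 rose by 2.25 ± 0.40 and passed in uMT as well (2.05 ± 0.40, adjusted p = 0.0222). Mefv, the pyrin gene of myeloid cells, rose by 3.22 ± 0.61.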
